A study of Triticum aestivum with 10 samples.

Results

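XIP-I (LOC542997) and WGA2 (LOC543494) are wheat defence proteins, the first directed at enzymes that cut a carbohydrate and the second at a carbohydrate itself. Their transcripts came up at different stages of grain development. The annotation of the array pairs XIP-I with 2 probe sets, called here by their endings the _at and the _x_at probe set, and WGA2 with 1. They are 2 of the 771 genes that the annotation names, and these 3 probe sets, of 61179 on the array, are described here, and all 3 passed the minimum for expression used below. Both genes were picked from the values of these same arrays, namely their stage profiles and the gap between harvests, so the levels of either gene are given as a description and without a test. RNA came from developing grains (endosperm and embryo together) of hexaploid bread wheat, Triticum aestivum cv. Récital. The plants were vernalized and then grown in a greenhouse, with no treatment compared. Whether the outer layers of the grain were kept is not stated. Grains were collected at 5 stages after pollination, named 100, 200, 250, 300 and 500 degree days (DD, the daily mean temperatures summed over time), and each stage has 2 arrays. The first 3 stages cover cell division and the last 2 the filling of the grain. Replicate 1 and replicate 2 are taken as the grains of separate harvest years, replicate 2 the earlier year. The labels do not state this, and the tie rests on the labelled degree days of each number, which lie closest to the times at which grains of that year were taken.

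XIP-I is a protein that binds and blocks microbial xylanases, the enzymes with which fungi open the arabinoxylan of the cereal cell wall. It is built like a chitinase but is not known to cut chitin. WGA2 encodes wheat germ agglutinin, a lectin made of hevein-like domains that binds chitin and N-acetylglucosamine. In wheat the lectin is known as a protein of the embryo that builds up late in grain development and responds to abscisic acid. Wheat germ agglutinin is encoded by very similar genes on the homoeologous chromosomes, so a single probe set may read more than 1 of them. The _x_at probe set carries the suffix that Affymetrix gives to probes shared with other sequences.

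Values are log2 signals after GCRMA, and a value of at least 4 was taken as expression. On the array labelled 100 DD replicate 2, XIP-I stood at 14.39 and 14.71 and WGA2 at 11.77, against 3.83, 4.56 and 2.14 on 100 DD replicate 1. Over the 24727 probe sets that reached 4 on at least 2 of the other 9 arrays, the correlation of this array was 0.987 with 500 DD replicate 2, against 0.628 with the other 100 DD array. It went against its label for both genes, and it is shown apart throughout. The replicates of the other 4 stages correlated at r = 0.934 to 0.960. The share of all probe sets at 4 or more was similar on every array, between 35.6% and 36.7%. Precision is limited by the number of arrays, 1 being left at 100 DD and 2 at each later stage.

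XIP-I was near the minimum on the earliest array and rose through cell division. In replicate 1 the _at probe set stood at 3.83 at 100 DD, 5.48 at 200 DD, 10.18 at 250 DD, 13.04 at 300 DD and 14.59 at 500 DD. In replicate 2 the same probe set stood at 8.60, 11.69, 13.41 and 14.10 from 200 to 500 DD. Each later array of a harvest was higher than the one before it, and the largest step observed in both harvests was that from 200 to 250 DD, the step before it being unobserved in replicate 2. This step was 4.70 on the log2 scale in replicate 1, or 25.9-fold over 45 labelled degree days, and 3.10 in replicate 2, or 8.55-fold over 50. The next step, from 250 to 300 DD, was 2.87 in replicate 1 and 1.72 in replicate 2. The last step, from 300 to 500 DD, was 1.55 in replicate 1 and 0.69 in replicate 2, although it spans 200 labelled degree days. The rise of XIP-I thus slowed from 1.04 to 0.077 log2 units per 10 degree days between the second and the fourth interval of replicate 1.

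The _x_at probe set gave the same course, except at the start. Its values in replicate 1 were 4.56, 4.83, 10.51, 13.42 and 14.96 from 100 to 500 DD, and those in replicate 2 were 9.14, 12.05, 13.71 and 14.54 from 200 to 500 DD. Over the 9 arrays the 2 probe sets of XIP-I correlated at r = 0.996. Their difference (_x_at minus _at) was 0.30 to 0.45 on the 6 arrays from 250 DD on, against 0.73 at 100 DD and -0.65 and 0.54 at 200 DD. The 2 probe sets therefore placed the first rise of replicate 1 differently. From 100 to 200 DD, over 55 labelled degree days, the _at probe set rose by at least 1.48, counted from the minimum. The _x_at probe set rose by 0.27. Which of them reads XIP-I alone was not tested.

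WGA2 was under 4 on all 5 arrays of the division stages and was first expressed at 300 DD. Its probe set stood at 2.14, 1.91, 2.31, 6.79 and 11.85 from 100 to 500 DD in replicate 1. In replicate 2 it stood at 2.25 at 200 DD, 3.30 at 250 DD, 7.40 at 300 DD and 10.94 at 500 DD. The arrays of 300 DD lay above all earlier ones, and those of 500 DD above those of 300 DD. Values under 4 are background, so the rise from 250 to 300 DD is known only as at least 2.79 in replicate 1 and 3.40 in replicate 2, counted from the minimum. The step from 300 to 500 DD lies wholly within the measured range. It was 5.06 in replicate 1, or 33.3-fold, and 3.55 in replicate 2, or 11.7-fold. At 500 DD the lectin transcript stood 7.85 above the minimum in replicate 1 and 6.94 above it in replicate 2.

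**Figure D1:**
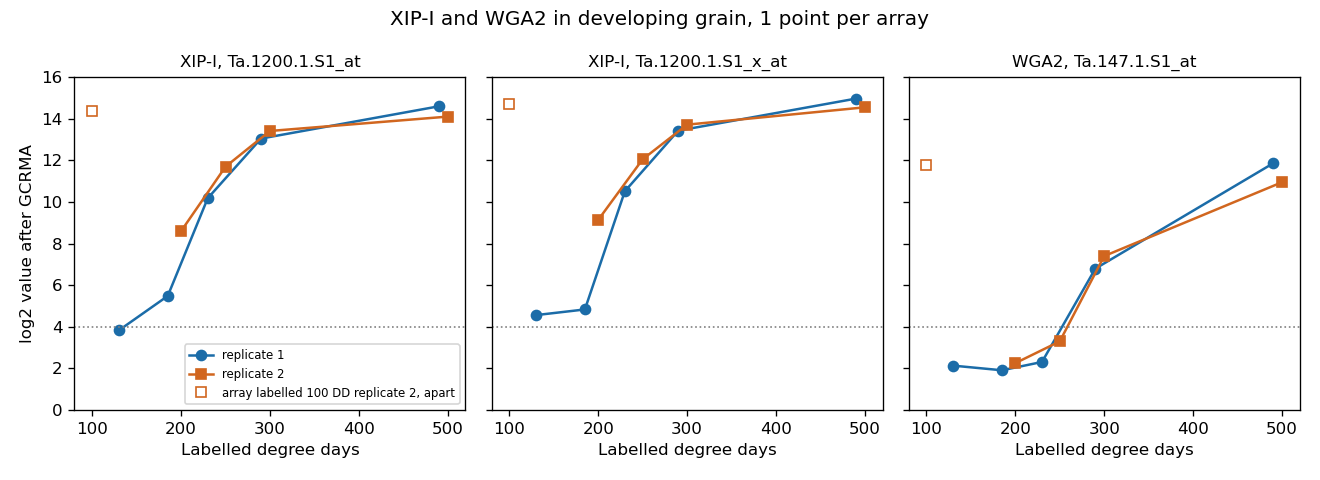
Each panel shows 1 probe set, with the log2 value after GCRMA on the y axis and the labelled degree days on the x axis, 1 point per array, a line per harvest and a dotted line at the minimum of 4. On the 250 DD arrays XIP-I has risen to between 10.18 and 12.05 while WGA2, at 2.31 and 3.30, is still under the minimum, and the open square, the array labelled 100 DD replicate 2, lies near the 500 DD points in all 3 panels.

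Onset was taken as the first stage of a harvest at which a probe set reached 4. For XIP-I in replicate 1 it was 100 DD with the _x_at probe set and 200 DD with the _at probe set. The earliest value of the latter, 3.83, lay just under the minimum. The 100 DD array of replicate 1 was labelled 130 degree days. In replicate 2 XIP-I was above the minimum on its first array used, that of 200 DD, so its onset in that harvest was not observed. For WGA2 the onset was 300 DD in both harvests. The time at which WGA2 crossed the minimum cannot be read closely, since its 250 DD values are background. Within its measured range, WGA2 reached a level of 10 at 417 DD in replicate 1 and at 447 DD in replicate 2. Of the 24727 probe sets, 56 (0.226%) were under 4 on every array up to 250 DD and at least 4 on every later one, as WGA2 was. First expression at 200 DD, as with the _at probe set, was seen for 713 (2.88%), at 250 DD for 21 (0.0849%) and at 500 DD for 327 (1.32%). Expression on all 9 arrays, as with the _x_at probe set, was found for 17706 (71.6%).

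Levels of different probe sets depend on their probes, so the 2 genes were also compared on the scale of their own 500 DD value. XIP-I came within 16-fold (4 log2 units) of its 500 DD value at 239 DD in replicate 1 and at 224 DD in replicate 2, with either probe set. WGA2 did so at 332 DD in replicate 1 and at 294 DD in replicate 2, which is later by 92.5 to 93.1 degree days in replicate 1 and by 70.2 to 70.3 in replicate 2. The crossing at 294 DD lies on the line from a 250 DD value that is background. The lag at 16-fold in replicate 2 therefore cannot be read closely. Within 4-fold (2 log2 units), WGA2 was later than XIP-I by 122 to 130 degree days over both harvests and both XIP-I probe sets. At 300 DD, XIP-I had made 85.4% to 93.2% of its log2 rise from 4 to the 500 DD value of the same harvest. The shares of WGA2 at that stage were 35.6% in replicate 1 and 48.9% in replicate 2. At 250 DD the share was 58.3% to 76.3% for XIP-I and 0 for WGA2, which had not reached the minimum. These crossings rest on lines drawn over intervals of up to 200 degree days and carry no error of their own. XIP-I and WGA2 correlated at r = 0.81 over the 9 arrays, which share their stages.

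The gap between harvests was widest for XIP-I at 200 DD. The _x_at probe set stood at 4.83 in replicate 1 and 9.14 in replicate 2, a difference of 4.30 on the log2 scale (19.7-fold), and the stage mean was 6.98 ± 3.04 (SD, n = 2). With the _at probe set the values were 5.48 and 8.60, a difference of 3.11 (8.66-fold) around a mean of 7.04 ± 2.20 (SD, n = 2). The median size of this gap over the 24727 probe sets was 0.34. Of them, 31 (0.125%) had one as large as the _x_at probe set and 156 (0.631%) one as large as the _at probe set. At 250 DD the 2 XIP-I probe sets were higher in replicate 2 by 1.52 and 1.53, with means of 10.93 ± 1.07 and 11.28 ± 1.08 (SD, n = 2), and at 300 DD by 0.36 and 0.29. At 500 DD the direction was the other way, and XIP-I was lower in replicate 2, with differences of -0.49 and -0.42. The _at probe set had means of 13.23 ± 0.26 at 300 DD and 14.35 ± 0.35 at 500 DD, and the _x_at probe set of 13.57 ± 0.20 and 14.75 ± 0.30 (SD, n = 2 throughout). The spread between harvests was thus larger at 200 DD than at 300 or 500 DD for both probe sets.

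The gaps of WGA2 stayed under 1 log2 unit at every stage, and they too changed direction at 500 DD. The lectin was higher in replicate 2 by 0.34 at 200 DD and 0.99 at 250 DD, both below the minimum. At 300 DD, the first stage with a measured level, it was higher in replicate 2 by 0.60 around a mean of 7.10 ± 0.43 (SD, n = 2). At 500 DD it was lower in replicate 2, with a difference of -0.91 around a mean of 11.40 ± 0.64 (SD, n = 2). Gaps as large as these last 2 were found for 23.3% of probe sets at 300 DD and 12.3% at 500 DD. Fitted with limma beside the stage means, the harvest term passed for 0 of 24727 probe sets (0%), while 4526 had an unadjusted p under 0.05. This count was not stable, reaching 156 without either 200 DD array and 217 with a minimum of 6. That test asks for a shift shared by all 4 stages with both harvests, and the gaps of XIP-I and WGA2 were not of that kind.

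The grains of 1 stage were not labelled with the same degree days, being 185 against 200 at the 200 DD stage, 230 against 250 at 250 DD, 290 against 300 at 300 DD and 490 against 500 at 500 DD. At the 100 DD stage the array used was labelled 130 and the array shown apart 100. The replicate 1 values were therefore also read off at the labelled degree days of the replicate 2 array, on the line between neighbouring replicate 1 arrays. The labels differ somewhat from the sampling times in the paper's methods. By those times the harvests lay further apart at 200 and 500 DD and closer together at 250 and 300 DD. The matched gaps were not recomputed with them. At 200 DD the gap of the _x_at probe set became 2.41 in place of 4.30, and that of the _at probe set 1.55 in place of 3.11. At 250 DD the XIP-I gaps became 0.56 with either probe set, and at 300 DD 0.29 and 0.21. For WGA2 the gap became 0.35 at 300 DD, and at 250 DD it turned to -0.51, with both values still below the minimum. Harvest and sampling time cannot be told apart at the matched stages, since each harvest was sampled at its own times. XIP-I reached a level of 10 at 223 DD in replicate 2 and at 228 DD in replicate 1 with the _at probe set, and at 215 and 226 DD with the _x_at probe set.

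**Figure D2:**
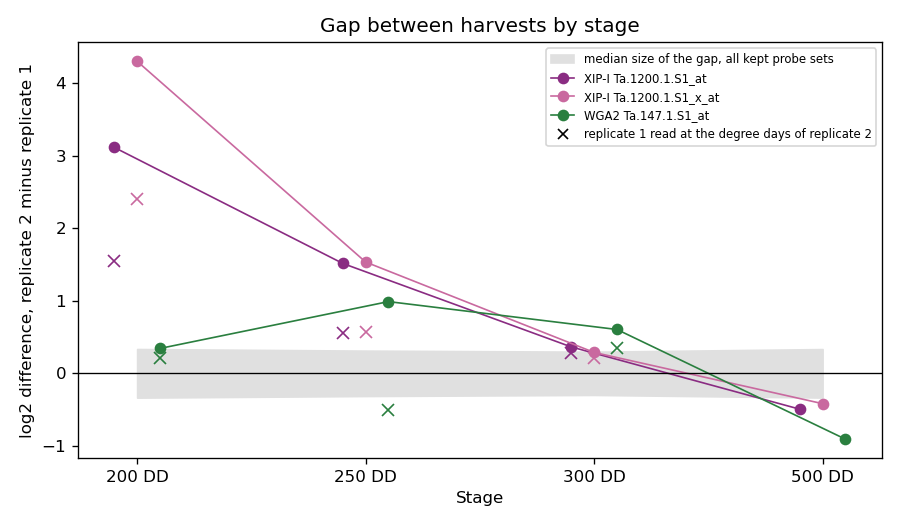
The log2 difference between harvests (replicate 2 minus replicate 1) is plotted by stage for the 3 probe sets, with circles for arrays of the same stage, crosses for replicate 1 read at the degree days of replicate 2, and a grey band for the median size of the gap over 24727 probe sets (0.30 to 0.34). The circles of XIP-I fall from 4.30 and 3.11 at 200 DD to -0.42 and -0.49 at 500 DD, and no cross is drawn at 500 DD, where replicate 1 has no later array.

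Other genes also differed between harvests at 200 DD. The 14 probe sets of starchy endosperm genes (gliadins, glutenins, an avenin-like protein and starch synthesis genes) averaged 12.26 in replicate 1 and 13.03 in replicate 2 at 200 DD, and differed by only 0.063 at 250 DD. The 18 histone probe sets, which mark dividing cells, averaged 10.28 in replicate 1 and 9.18 in replicate 2 at 200 DD, a gap of -1.10, and had a similar gap of -0.97 at 500 DD, where that of XIP-I was small. Of the 2416 probe sets higher at 500 DD than at 200 DD by limma, 1476 (61.1%) were higher in replicate 2 than in replicate 1 at 200 DD, with a median gap of 0.10. At 200 DD XIP-I therefore differed between harvests in the same direction as most rising probe sets, but by more than their median. At 250 and 300 DD, where XIP-I was also higher in replicate 2, 42.9% and 49.9% of the rising probe sets were. The part of grain age in the gap of XIP-I was not tested. In grain samples that mix tissues, a larger share of the cells that express a gene and more of its RNA per cell cannot be told apart.

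Likeness to XIP-I was measured by Pearson's r with the _x_at probe set over the 9 arrays, among the 89 genes with kept probe sets that have a name other than a locus number. LEA1 (LOC543476), a late embryogenesis protein, had r = 0.92 and stood at 4.98 at 100 DD, 8.52 and 9.54 at 200 DD, and 11.02 and 11.29 at 300 DD. Serpin-Z2B (LOC543382) and Serpin-Z2A (LOC543376), protease inhibitors of the endosperm, had r = 0.89 and 0.88, and TTHV, a gene whose symbol the annotation gives without a description, had r = 0.88. The avenin-like gene ALP (LOC100125692) had r = 0.88 too, but it ranged only from 10.48 to 11.02. All 5 were higher in replicate 2 at 200 DD. The gaps there were 2.25 for TTHV, 1.74 for Serpin-Z2B, 1.16 for Serpin-Z2A, 1.03 for LEA1 and 0.31 for ALP, each narrower than the 4.30 of XIP-I. These gaps are among the values on which the likeness rests. At 500 DD, XIP-I was lower in replicate 2, while 4 of these 5 genes were higher in that harvest. Their gaps were 0.88 for Serpin-Z2A, 0.36 for LEA1, 0.06 for TTHV and 0.04 for ALP, and that of Serpin-Z2B was -0.09. The median size of the gap over all kept probe sets was 0.33 at that stage. Gaps as large as those of XIP-I were found there for 34.3% of probe sets (_at) and 41.0% (_x_at), so these differences are mostly of ordinary size.

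WGA2 was most like Rab15 (LOC543293), with r = 0.99. Rab15 belongs to the dehydrins, proteins of drying tissue, and is known to be induced by abscisic acid. Rab15 was under 4 on all division arrays, at 7.05 and 6.37 at 300 DD and at 11.76 and 11.33 at 500 DD, for replicate 1 and replicate 2 in turn. It therefore shared the onset stage of WGA2. The harvests ran the opposite way at 300 DD, where Rab15 was lower in replicate 2, with a difference of -0.68, and WGA2 higher by 0.60. PIMT (LOC543193), an enzyme that repairs aged proteins, followed with r = 0.95. The late embryogenesis genes Em (LOC543480, r = 0.91) and EM (LOC543497, r = 0.87) were still near the minimum at 300 DD. Em stood at 4.48 and 3.14 at 300 DD, and at 14.22 and 14.14 at 500 DD. EM was at the minimum in replicate 1 and at 3.23 in replicate 2 at 300 DD, and at 14.53 and 14.72 at 500 DD. The small heat shock gene hsp16.9A (LOC543277) had r = 0.87. These correlations run over 9 arrays that share their stages, and of the 24727 probe sets 190 correlated with WGA2 at 0.95 or more and 130 with XIP-I.

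**Figure D3:**
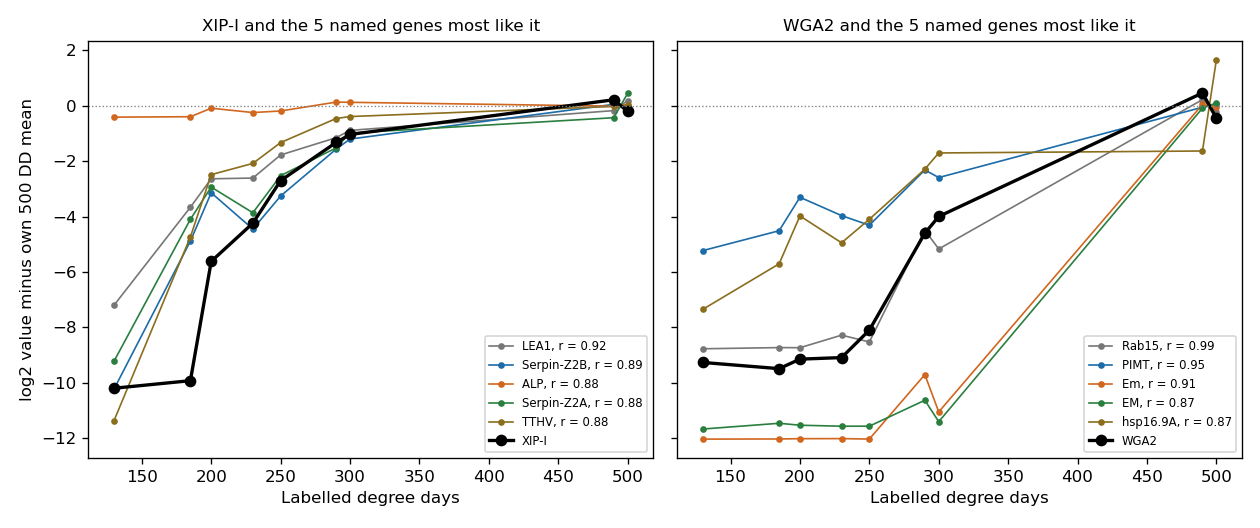
Each line is 1 probe set, with its log2 value minus its own mean of the 500 DD arrays on the y axis and the labelled degree days on the x axis, the 9 arrays of both harvests joined in order. In the left panel XIP-I (black) is the lowest of the lines at 185 and 200 degree days. In the right panel WGA2 (black) and Rab15 run together while Em and EM stay low until 300 DD.

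Few other genes of carbohydrate-directed defence can be named on this array. The list of xylanase inhibitors held XIP-I alone and that of chitin-directed proteins WGA2 alone. Of the probe sets on the list of other defence proteins, 2 of 3 passed the minimum, both of the lipid transfer protein LTP3 (LOC543095). That list was matched on a set of names that left out thionins and protease inhibitors. The serpins described above, whose levels rose, are not on it. The _at probe set of LTP3 was lower at 500 DD than at 200 DD by limma (log2 difference -1.55, standard error 0.24, adjusted p = 0.00579), and its _x_at probe set was not called (log2 difference -0.69, adjusted p = 0.197). The call for the former between 500 and 300 DD (adjusted p = 0.00924 from limma) ended without 300 DD replicate 1 or 500 DD replicate 2. XTH, a xyloglucan endotransglycosylase that remodels cell walls, was lower at 500 DD than at 200 DD (log2 difference -2.84, standard error 0.65, adjusted p = 0.0235 from limma), and this call ended without either 200 DD array, without 500 DD replicate 2, or with no minimum for expression. In this comparison limma called 21.8% of probe sets, 9.77% higher and 12.1% lower, and over all stages together 26.7%. The median difference over all kept probe sets was -0.07. These lists hold only 3 kept probe sets beside those of XIP-I and WGA2, too few to set against that background.

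The lists of genes that mark parts of the grain give transcript levels over the same stages. All 9 kept probe sets of late embryogenesis and dehydration genes, which mark the maturing embryo and aleurone, were higher at 500 DD than at 200 DD by limma, and 8 were higher at 500 DD than at 300 DD, a step in which limma called 6.28% of probe sets higher and 6.01% lower. All of these 9 but LEA1 were under 4 on every division array and passed the minimum only through later arrays. Their rise from 200 DD was thus largely fixed by that minimum. Of the 9, 3 reached the minimum only on the 500 DD arrays and so had to be higher there than at 300 DD too. Both counts of these 9 are therefore descriptions. Their mean level lay between 2.82 and 3.51 on the division arrays, at 5.03 and 4.61 at 300 DD, and at 12.75 and 12.73 at 500 DD. LEA1 stood apart from the others, at 4.98 at 100 DD and between 8.52 and 10.40 on the 200 and 250 DD arrays. Without 500 DD replicate 1 or without 500 DD replicate 2, 6 of them were still kept, and 5 of these were called in the last step. The mean of the starchy endosperm genes was 3.93 at 100 DD and between 12.26 and 13.18 from 200 DD on. Within this list AGP-S and GBSS already stood at 10.78 and 9.77 at 100 DD, and 1 probe set of GAG56D reached at most 5.09. At 200 DD XIP-I had made 7.6% to 14.0% of its log2 rise from 4 in replicate 1 and 45.5% to 48.7% in replicate 2. No earlier array of replicate 2 was used, so the order of these rises was seen in replicate 1 only. Of the 18 histone probe sets, 17 were lower at 500 DD than at 200 DD, as were 6 of the 7 kept probe sets of photosynthesis genes of the green outer layers. Over all kept probe sets, limma called 12.1% lower and 9.77% higher in this comparison. The photosynthesis list held 31 probe sets of 3 genes, and most of them did not pass the minimum. The part of these tissues in the levels of XIP-I and WGA2 was not tested.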

How the data were processed

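The authors normalized the raw array files with GCRMA in Bioconductor. Its version was not given in the sources used here. The deposited table holds log2 values of 61179 probe sets, beside 111 controls of the manufacturer. All 10 columns belong to these samples, 9 of them entered the fits, and that of the array labelled 100 DD replicate 2 was only shown apart. Controls were left out, and probe sets with at least 4 on at least 2 of 9 arrays were kept. Stage means were fitted with limma 3.58.1 (R 4.3.3) and p-values adjusted over 24727 probe sets by Benjamini-Hochberg, with 0.05 as the threshold. The members and lists were chosen with earlier results of these data known. Named are both genes, the lists, and the 5 named genes with the highest Pearson's r to each. List names were matched to symbols and synonyms, because the tables held no descriptions, and abbreviations such as LTP3 and XTH were added after the tables were seen. Of 1273 annotated probe sets, 1272 matched the RefSeq gene table (assembly IWGSC CS RefSeq v2.1), and 59906 have no gene named here. No other probe set shares a name stem with the 3 members. The fits hold no block. Replicate numbers do pair the arrays, since deviations from the stage means correlated at 0.25 to 0.72 in all 6 pairs of stages and the numbers follow the harvests. Nothing says whether grains of 1 array came from separate plants, so p-values measure the spread between these arrays. On simulated data with 200 changed among 24727 probe sets, limma recovered, for 500 DD minus 200 DD, 2.99% of those changed by a log2 of 1, 50.7% at a log2 of 2 and 87.9% at a log2 of 4. The simulated noise was independent between arrays, and far fewer probe sets changed than the 21.8% called in the data. These rates therefore need not hold for the fits reported here. Alternatives changed the filter, normalization, prior, block, arrays and level of onset.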

Additional observations from a re-analysis of the deposited data

Results flagged for a closer look

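The gap between harvests (replicate 2 minus replicate 1) had opposite signs at 500 DD and at the earlier stages for all 3 probe sets. For XIP-I it was 3.11, 1.52 and 0.36 at 200, 250 and 300 DD with the _at probe set, against -0.49 at 500 DD. With the _x_at probe set it was 4.30, 1.53 and 0.29, against -0.42. For WGA2 it was 0.34, 0.99 and 0.60, against -0.91, but the first 2 lie between values under the minimum of 4, and at matched degree days the 250 DD gap was -0.51. Each gap rests on 1 array per harvest, and the difference between stages was not tested.

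The array labelled 100 DD replicate 2, which enters none of the comparisons, had XIP-I at 14.39 with the _at probe set and 14.71 with the _x_at probe set and WGA2 at 11.77, all above the values of 100 DD replicate 1.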

How the results depend on the processing

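With all 10 arrays, 107 probe sets were called over the stages in place of 6610, 122 for 500 DD minus 200 DD in place of 5396 and 45 for 500 DD minus 300 DD in place of 3040, and in these 2 contrasts none of the probe sets of the lists of other defence, cell wall, late embryogenesis, endosperm, green layer and histone genes was called. The methods' t-test, with 2 arrays against 2, called 0 for 500 DD minus 200 DD after Bonferroni and 8 after Benjamini-Hochberg adjustment, and 1 for 500 DD minus 300 DD by either. Leaving out 1 array gave 3549 to 6046 over the stages, 2801 to 5407 for 500 DD minus 200 DD, 1099 to 3091 for 500 DD minus 300 DD and 0 to 156 between harvests. Between harvests, 0 became 217 with a minimum of 6, 48 with quantile normalization and 126 with a prior that follows the mean level. With the replicate number as a block, 7757, 6701 and 4107 probe sets were called over the stages and in the 2 contrasts, each within 1.5 times the count without it. With quantile normalization 2725 were higher and 2818 lower at 500 DD than at 200 DD, against 2416 and 2980.

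The onset of XIP-I depends on the level that counts as expression, while it preceded that of WGA2 under every level and harvest tried, apart from the run with all 10 arrays. In replicate 1 the _at probe set had its onset at 100 DD with a level of 3 and at 250 DD with levels of 6 and 10 or the midpoint of its range, and the _x_at probe set at 250 DD with levels of 5, 6 and 10 or the midpoint. In replicate 2 both moved from 200 to 250 DD with a level of 10 or the midpoint. WGA2 moved to 500 DD with a level of 10 in both harvests and with the midpoint in replicate 1, and to 250 DD with a level of 3 in replicate 2. With all 10 arrays the onset of replicate 2 became 100 DD for all 3 probe sets. At matched degree days, an alternative chosen after seeing the data as was the level of 10, the 200 DD gaps of XIP-I became 1.55 with the _at probe set and 2.41 with the _x_at probe set, and the 250 DD gap of WGA2 turned to -0.51. The lines between arrays make these changes by construction.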
